A study of Mus musculus with 1073 samples.

Results

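The cells described here are the haematopoietic progenitor cells (HPC) of the mouse yolk sac at 2 consecutive days, embryonic day (E) 9.5 and E10.5. They were chosen by their labels alone: 46 E9.5 HPC and 87 E10.5 HPC that passed the authors' quality filter, of the 926 filtered cells of the series, which spans 13 sorted yolk sac populations. Both groups came from untreated C57BL/6 embryos, for which the labels name no transgene. In both, cells were sorted as negative for the erythroid antigen TER119 and the endothelial cadherin CDH5, positive for the pan-leukocyte antigen CD45 and low for CD41, the integrin carried by the first definitive progenitors. Single cells were captured on the Fluidigm C1 microfluidic system and sequenced one library per cell. The E9.5 cells were sequenced in lane 2 and the E10.5 cells in lane 4 of the same flow cell, and no embryo, pool or second capture is named for either stage. Each stage is therefore 1 sample: no test between stages was made, stage cannot be told apart from capture and lane, and the spread given is the spread between cells.

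As background, this phenotype is that of erythro-myeloid progenitors, which bud from yolk sac endothelium, form red cells, megakaryocytes, macrophages, granulocytes and mast cells in culture, and seed the fetal liver before haematopoietic stem cells are active. Yolk sac progenitors carry *Kit*, the stem cell factor receptor, *Runx1*, the factor required for their emergence, and *Myb*, which their definitive wave depends on. Granule proteins mark the neutrophil path, *Gata1* the erythroid and megakaryocyte path, and *Csf1r*, the receptor for macrophage colony stimulating factor, the macrophage path.

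The label was first set against its markers. At an equal depth of 840000 counts per cell, to which each cell was thinned at random and which 45 E9.5 and 71 E10.5 cells reached, *Ptprc*, which encodes CD45, was found in 95.6% of E9.5 and 90.1% of E10.5 cells, *Kit* in 93.3% and 90.1%, *Itga2b*, which encodes CD41, in 75.6% and 66.2%, and *Runx1* in every cell. *Gata1*, another identity marker, was found in 15.6% and 60.6%. *Cdh5*, which encodes the antigen that the sort excluded, was found in 37.8% and 40.8% of cells, with medians of 0 CPM and means of 5.35 and 13.0 CPM, against 100% of sorted endothelial cells and a mean of 953 CPM. Of 4 visceral endoderm markers *Ttr* and *Apob* were at 0 in both stages, and the sum of the list never passed 12.5 CPM at E9.5 or 21.2 CPM at E10.5. CPM is the unit throughout, the authors' counts scaled to a common depth by a size factor for each cell. One E10.5 cell had almost none of the identity markers: the summed level of 10 identity markers, which had a median of 1232 CPM over E10.5 cells, was 1.88 CPM in it, while *Cdh5* was at 662 CPM and *Mrc1* at 1800 CPM. This sum does not separate HPC from other blood cells, since its median was 683 CPM in sorted macrophages and 1775 CPM in megakaryocytes. Another E10.5 cell, which was kept, had a sum of 187 CPM and *Ctsb* as its top gene.

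The libraries differed in depth. The E9.5 cells held 503107 to 5108853 counts (median 3082738) and the E10.5 cells 483830 to 4339557 (median 1609583), after a filter that 46 of 58 and 87 of 92 captured cells had passed. Mitochondrial transcripts took a median of 2.42% of counts at E9.5 and 2.59% at E10.5, but more than 10% in 8 E9.5 cells and 2 E10.5 cells, with highest values of 70.4% and 49.9%. One other E9.5 cell, the shallowest, had a CPM sum above 1500000. These cells and the E10.5 cell above are called set-aside cells below, 9 at E9.5 and 3 at E10.5. The criteria were chosen after the data were seen, and ratios are given with all cells and, where stated, without these 12, which leaves 37 and 84. Transcripts of both sexes were found in 13 of 46 E9.5 cells (28.3%) and 19 of 87 E10.5 cells (21.8%). At equal depth the E10.5 cells held more genes, with a median of 8866 against 7907, although they were the shallower group before thinning. Without the set-aside cells the medians were 8866.5 and 8209. Thinning left out 16 E10.5 cells and 1 E9.5 cell that were too shallow.

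A ratio is the log2 of mean CPM + 1 at E10.5 less the same at E9.5, and a gene is called higher or lower when it passes 2-fold, that is 1 on this scale. Averaged over the stages, 8486 genes reached 10 CPM, of which 373 were higher at E10.5 (4.40%) and 653 lower (7.70%), called the background shares below. Without the set-aside cells 329 of 8328 were higher (3.95%) and 270 lower (3.24%), so that the share of calls that are higher went from 36.4% to 54.9%. The same share was 53.5% when counts were scaled to the library total and 91.4% when the mean of log2 values was compared, a scale on which the median of all genes itself moved from -0.01 to 0.34. In the 8215 genes tested both ways, 253 were higher (3.08%) and 160 lower (1.95%) in both. Among the lower genes, 281 of 653 took more than 50% of their E9.5 sum from 1 cell, against 19 of 373 higher genes that took as much of their E10.5 sum from 1 cell.

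The 15 genes with the highest ratio among abundant, widely found genes (50 CPM or more, and 50% of cells or more, at the higher stage) all remained past 2-fold without the set-aside cells. They included *Dab2*, an endocytic adaptor, *Hdc*, which makes histamine, *Lgals1*, a secreted lectin, *Mpo*, the peroxidase of neutrophil granules, *Cd68* and *Ctsb* of the lysosome, and *Oxct1* of ketone body use. Of the 15 genes with the lowest ratio only *Prtg*, a cell surface protein of early embryonic tissues, remained past 2-fold, and 13 of the 15 took more than 50% of their E9.5 sum from 1 cell. *Plekha3* shows the pattern: its E9.5 median was 15.4 CPM, 1 cell at 52800 CPM held 97.1% of the sum, and its log2 ratio went from -5.52 to -0.95 without the set-aside cells.

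**Figure D1:**
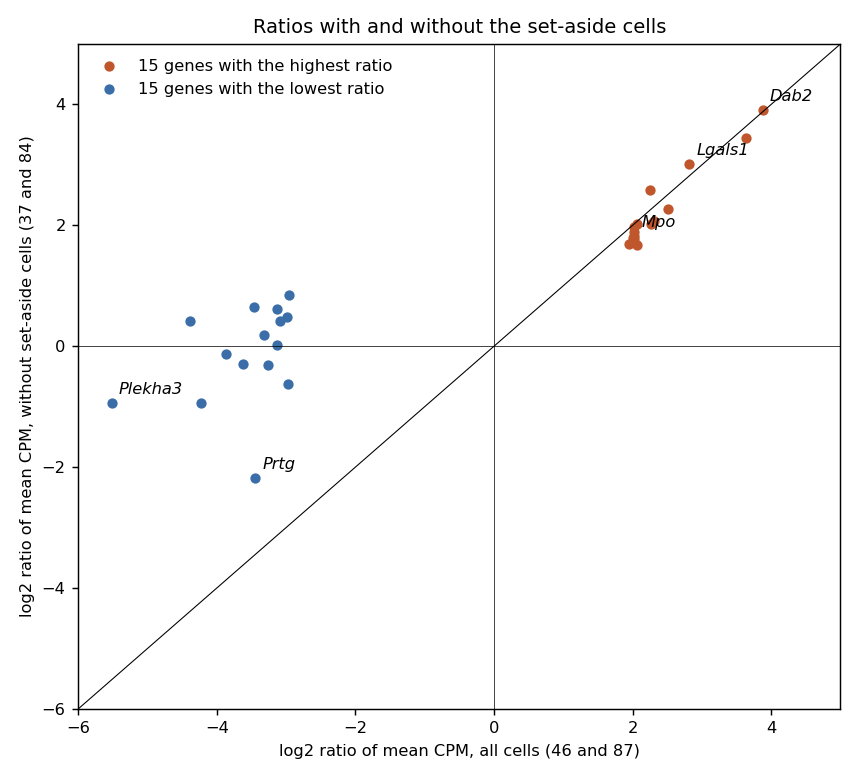
Stage ratio (log2, mean CPM at E10.5 against E9.5) with all cells (x axis) and without the set-aside cells (y axis), for the 15 genes per direction with the largest ratio; each point is a gene and the diagonal marks equal values. The higher genes lie near the diagonal, whereas of the lower genes only *Prtg* stays below -1.

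The granule genes *Mpo*, *Srgn* and *Lyz2* were higher at E10.5. *Mpo*, on GRCm38 at chr11:87793581-87804413, ranged from 0 to 2878 CPM at E9.5 with a median of 150, and from 1.44 to 8420 CPM at E10.5 with a median of 483. Its mean went from 295 to 1202 CPM, a log2 ratio of 2.02 (1.83 without the set-aside cells), and 13 E10.5 cells lay above the highest E9.5 cell. The cells of the stages overlapped: in 73.1% of all pairs of one E10.5 and one E9.5 cell the E10.5 cell had the higher level, where 50% would be no shift. Summed over cells *Mpo* stood at 319 CPM at E9.5 (95% exact Poisson interval 316 to 322) and 1415 at E10.5 (1409 to 1421). Such intervals cover counting error only, since reads without molecular identifiers are not independent molecules. At equal depth *Mpo* was found in 39 of 45 E9.5 cells (86.7%, exact 95% interval 73.2 to 94.9%) and 71 of 71 E10.5 cells (100%, 94.9 to 100%), against 20% of E10.5 macrophages (Mac) and 4.48% of megakaryocytes (Mk) from the same series.

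*Srgn*, the proteoglycan that packs granule proteins, had a median of 86 CPM at E9.5 (0 to 832) and 218 CPM at E10.5 (2.28 to 738). No E10.5 cell was above the highest E9.5 cell, yet the E10.5 cell was higher in 80.3% of pairs, and the log2 ratio was 1.14 (1.23). *Lyz2*, lysozyme, had medians of 38 and 85 CPM and a log2 ratio of 1.38 (1.13), with 9 E10.5 cells above all E9.5 cells. *Prtn3*, the serine protease proteinase 3, did not follow: its mean was 143.6 CPM at E9.5 and 165 CPM at E10.5, and it was found in 91.1% and 91.5% of cells. *Elane*, neutrophil elastase, was low at both stages, in 6 of 45 and 16 of 71 cells. Of 22 listed granule genes 7 were tested, 3 were higher and none lower, beside background shares of 4.40% and 7.70% (3.95% and 3.24% without the set-aside cells), with a median log2 ratio of 0.78 (0.85 without the set-aside cells). The granulocyte genes *S100a8*, *S100a9* and *Ctsg* were at 0 in every cell of both stages.

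The promoter of *Mpo* is printed as the sequence of the granule gene with the largest difference, chosen after its values were seen. It is chr11:87793534-87793833 of GRCm38.p6, plus strand, from RefSeq, 250 bases before to 50 after the annotated start, 5′ to 3′, with the letters GAGGAA in capitals, the core read by ETS factors such as PU.1.
Mpo: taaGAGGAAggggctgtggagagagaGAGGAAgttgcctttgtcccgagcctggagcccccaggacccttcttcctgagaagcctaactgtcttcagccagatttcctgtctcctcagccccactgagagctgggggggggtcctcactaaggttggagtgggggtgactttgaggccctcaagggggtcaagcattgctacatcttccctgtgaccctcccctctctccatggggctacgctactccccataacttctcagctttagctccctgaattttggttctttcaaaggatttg
GAGGAA stands here 2 times, at 247 and 224 bases before the start, and occurs on either strand in 28.1% of 32544 RefSeq promoters of the same length. A match of letters is a description and not a binding site.

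**Figure D2:**
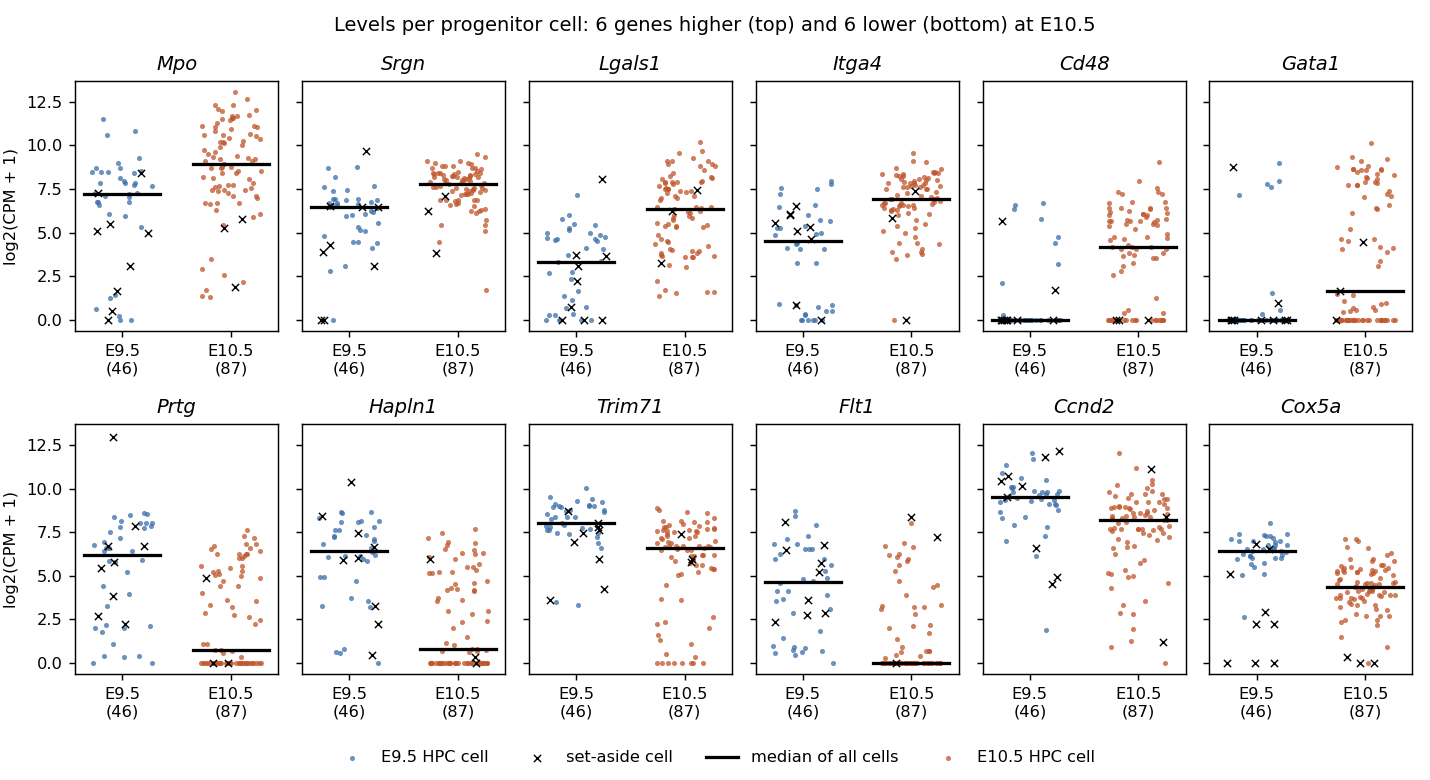
Level in each cell, as log2(CPM + 1), of 6 genes higher (top) and 6 lower (bottom) at E10.5; dots are cells, crosses the set-aside cells, and bars the median of all 46 E9.5 or 87 E10.5 cells. The stages overlap for every gene shown, and *Lgals1*, *Itga4* and *Mpo* reach above the E9.5 range in 17, 20 and 13 E10.5 cells.

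*Itga4* and *Lgals1* were higher at E10.5. *Itga4*, the integrin subunit that binds VCAM1 (chr2:79255426-79333123), had a median of 22 CPM at E9.5 (0 to 247) and 123.2 CPM at E10.5 (0 to 769). Its log2 ratio was 1.90 with and without the set-aside cells, the E10.5 cell was higher in 83.1% of pairs, and the share of cells with the gene at equal depth was 71.1% (55.7 to 83.6%) and 97.2% (90.2 to 99.7%). *Lgals1* had medians of 9.12 CPM (0 to 266) and 81.6 CPM (1.56 to 1155), a log2 ratio of 2.82 (3.02) and 17 E10.5 cells above the E9.5 range.

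*Cd48*, a surface protein that distinguishes restricted progenitors from stem cells in the adult, was found in 10 of 45 E9.5 cells (22.2%, 11.2 to 37.1%) and 48 of 71 E10.5 cells (67.6%, 55.5 to 78.2%). Its median was 0 at E9.5 and 17.4 CPM at E10.5, and its log2 ratio 2.09 (2.01). In the E10.5 macrophages it was found in 16% of cells and in megakaryocytes in 1.49%. *Spn*, the sialophorin CD43, had medians of 0.656 and 12.3 CPM, and was found in 44.4% and 84.5% of cells. Of 22 listed chemokine receptors and integrins 17 were tested, of which 5 were higher (4 without the set-aside cells) and 1 lower (0), beside background shares of 4.40% and 7.70%, and of 3.95% and 3.24% without those cells. Those higher included *C5ar1*, the receptor of complement C5a, at a log2 ratio of 3.26 and *Ccr1*, a chemokine receptor, at 2.67.

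Among progenitor transcription factors 3 of 18 tested were higher and 2 lower, and 4 of 19 were higher and 0 lower without the set-aside cells, where all tested genes stood at 4.40% and 7.70%, and at 3.95% and 3.24%. *Gata1*, the erythroid and megakaryocyte regulator (chrX:7959260-7978071), had a median of 0 at E9.5 (0 to 517 CPM) and 2.16 CPM at E10.5 (0 to 1135). It was found in 7 of 45 cells (15.6%, 6.49 to 29.5%) and 43 of 71 cells (60.6%, 48.3 to 72%), against 98.5% of megakaryocytes, 4% of macrophages and 0% of endothelial cells (Endo). The log2 ratio was 1.64 (1.77), and *Gata1* was thus found in a larger share of HPC at E10.5 than at E9.5. Whether the label holds the same kinds of cells at both stages was not tested.

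*Gata2*, its partner in early progenitors, was already found in 82.2% of E9.5 cells and in 85.9% of E10.5 cells, and its medians were 28.1 and 78.9 CPM (log2 ratio 1.24, 1.15). *Hlf*, a leucine zipper factor of stem and multipotent cells, was at most 11.8 CPM at E9.5 and reached 448 CPM at E10.5, with 25 E10.5 cells above the E9.5 range, although its median was 0 at both stages. It was found in 13.3% of E9.5 and 38% of E10.5 cells, and its log2 ratio was 4.03 (4.10). *Cbfb*, the partner subunit of RUNX1, had a log2 ratio of 0.86 with all cells and 1.54 without the set-aside cells. *Runx1*, *Meis1* and *Spi1*, which encodes PU.1, did not pass 2-fold, with log2 ratios of -0.49, -0.20 and -0.65.

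Of 3 tested mast cell genes *Cpa3* and *Hdc* were higher at E10.5 and none was lower. The background shares were 4.40% and 7.70% (3.95% and 3.24% without the set-aside cells). *Cpa3*, the carboxypeptidase of mast cell granules, had a median of 0.101 CPM at E9.5 (0 to 362) and 0.836 CPM at E10.5 (0 to 822), and was found in 33.3% and 57.7% of cells. *Hdc* was found in 8 of 45 and 41 of 71 cells (17.8% and 57.7%), with means of 4.35 and 65.5 CPM and a log2 ratio of 3.63 (3.44). *Il1rl1*, the interleukin 33 receptor, was on the other side, at means of 15.8 and 9.77 CPM. None of *Cpa3*, *Gzmb*, *Mcpt8*, *Fcer1a* and *Ms4a2* had a count in the macrophage, megakaryocyte, endothelial or E8.5 primitive erythroid (EryP) cells. Of 16 listed mast cell, basophil and eosinophil genes 3 were tested, so the median of 1.89 rests on those.

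The macrophage genes *Mrc1*, *Adgre1* and *C1qb* were higher in mean, with medians of 0 at both stages. *Mrc1*, the mannose receptor, had means of 10.1 CPM at E9.5 and 265 CPM at E10.5 with a median of 0 at both, and 9 E10.5 cells lay above the highest E9.5 cell (145.04 CPM). *Adgre1*, which encodes F4/80, went from means of 3.84 to 43.4 CPM and was found in 2 of 45 and 21 of 71 cells. *C1qb*, of complement C1q, had means of 13.9 and 99.9 CPM, again with medians of 0. The high means of these genes therefore came from a minority of E10.5 cells.

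*Csf1r* itself did not pass 2-fold: its means were 83.1 and 99.6 CPM, its median was 27.7 CPM at E9.5 and 1.64 CPM at E10.5, and at equal depth it was found in 34 of 45 (75.6%) and 40 of 71 cells (56.3%). *Cx3cr1*, the fractalkine receptor, was found in 55.6% and 53.5%. Of 26 listed monocyte and macrophage genes 16 were tested, of which 7 were higher (8 without the set-aside cells) and none lower, against background shares of 4.40% and 7.70% (3.95% and 3.24%), with a median log2 ratio of 0.87 (0.85). The summed level of 8 macrophage markers, none of which was at 0 throughout, ran from 0.272 to 1602 CPM at E9.5 (median 88.4) and from 0 to 11660 CPM at E10.5 (median 38.7), so that the highest cells of both stages lay within the range of sorted macrophages (259 to 24037 CPM). In sorted endothelium, where *Mrc1* had a mean of 2035 CPM, the same sum ran from 0 to 6285 CPM (median 1385). The part of the HPC with the highest sums in the macrophage and chemokine ratios was not tested.

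Among the lists with at least 5 genes tested at the filter of 10 CPM, chemokines had the highest median. This rank did not hold without that filter, as given below. The 3 tested mast cell and basophil genes had a median log2 ratio of 1.89 (1.74). Of 18 listed chemokines and cytokines 7 were tested, 5 were higher and none lower, against 4.40% and 7.70% of all genes, with a median log2 ratio of 1.68 (1.43). *Ccl2*, which draws monocytes, had no count in any E9.5 cell and was found in 15 of 71 E10.5 cells (21.1%, 12.3 to 32.4%), and 1 of the 87 cells held 77.4% of the E10.5 sum. Against a floor of 3 counts over the whole E9.5 group, 0.0212 CPM, it was at least 1698-fold higher in summed counts, while 0 of 45 cells allows a share of up to 6.67% by the limit of 3 counts (exact upper bound 7.87%). *Ccl9*, another monocyte chemokine, was found in 4 of 45 and 27 of 71 cells, with means of 5.84 and 36 CPM.

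*Ccl4* had means of 11.2 and 59.4 CPM, but 1 cell held 97.9% of its E9.5 sum. *Ccl6* had a log2 ratio of 1.12 (1.06) and *Grn*, progranulin, 1.68 (1.43). *Ccl3* and *Igf1* did not pass. *Ccl3* had means of 92.6 and 70.7 CPM and cells with the gene at 48.9% and 40.8%. The 5 chemokines *Ccl2*, *Ccl3*, *Ccl4*, *Ccl6* and *Ccl9* were found in 60% or more of the E10.5 macrophages.

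The promoter of *Ccl9* is shown because the gene belongs to the chemokine list described above, and *Ccl2* is named only. It is chr11:83578587-83578886 of GRCm38.p6 (RefSeq), minus strand, with the letters TATAAA or their complement TTTATA in capitals, where 2 matches overlap.
Ccl9: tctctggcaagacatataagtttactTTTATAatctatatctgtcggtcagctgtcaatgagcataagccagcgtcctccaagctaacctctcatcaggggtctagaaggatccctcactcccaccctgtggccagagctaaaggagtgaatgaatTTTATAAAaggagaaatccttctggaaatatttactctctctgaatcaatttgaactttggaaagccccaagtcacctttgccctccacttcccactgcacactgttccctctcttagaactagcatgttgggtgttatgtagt
TATAAA stands 92 bases before the start, TTTATA at 94 and 224 bases. These letters occur in 13.6% of all RefSeq promoters of this length, and the window has 43.7% G and C, against a median of 53% over those promoters.

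Some lysosome and interferon genes were higher. Of 15 tested genes of the oxidase and lysosome 4 were higher (5 without the set-aside cells) and none lower, against background shares of 4.40% and 7.70% (3.95% and 3.24%). *Lgmn*, *Ctss* and *Ctsb*, which encode lysosomal proteases, had log2 ratios of 3.70, 2.24 and 2.02. *Gm2a*, the GM2 ganglioside activator of the lysosome, was found in 40% of E9.5 cells and 85.9% of E10.5 cells, with medians of 0 and 38.9 CPM, so that its difference was broad. *Oxct1* had medians of 7.07 CPM (0 to 96.1) and 67.1 CPM (0 to 246), and 27 E10.5 cells exceeded every E9.5 cell. Its log2 ratio of 2.07 became -0.0039 on library-size CPM of all captured cells, those left out by the filter included. Of 12 tested interferon and antigen presentation genes 4 were higher (2 without the set-aside cells), against the same shares. One of them was *Psmb8*, a subunit of the immunoproteasome, which was found in 31.1% and 69% of cells and had a log2 ratio of 2.34 (2.06).

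*Trim71*, *Prtg* and *Hapln1* were lower at E10.5. *Trim71*, a ubiquitin ligase and *let-7* target of early embryos (chr9:114507133-114564369), had a median of 256 CPM at E9.5 (8.98 to 1056) and 97.5 CPM at E10.5 (0 to 468). Its log2 ratio was -1.46 (-1.61 without the set-aside cells), and the E10.5 cell was higher in 18.8% of pairs (14.5%). *Prtg* had medians of 72.6 CPM (0 to 7922) and 0.656 CPM (0 to 199), and was found in 86.7% and 47.9% of cells. One E9.5 cell held 61.7% of its sum, and the log2 ratio of -3.45 became -2.18 without the set-aside cells.

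*Hapln1*, which links hyaluronan to proteoglycans, had medians of 83.5 CPM (0 to 1351) and 0.757 CPM (0 to 208), a log2 ratio of -2.65 (-2.44) and shares of 91.1% and 54.9%. Other genes of embryonic timing moved less. *Lin28b*, which blocks *let-7* maturation, had medians of 98.8 and 106.7 CPM, and *Hmga2*, a chromatin protein and *let-7* target, medians of 704 and 407 CPM with a log2 ratio of -1.03 (-0.49). Of 10 tested genes of this list 3 were lower and none higher (1 lower and 1 higher of 11 without the set-aside cells), against background shares of 7.70% lower and 4.40% higher (3.24% and 3.95%). The list had a median log2 ratio of -0.38 (-0.21), beside -0.01 (-0.02) over all tested genes.

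The *Trim71* promoter, also chosen after its values were seen, is chr9:114564320-114564619 of GRCm38.p6 (RefSeq), minus strand. In capitals are TTCCTC, the complement of GAGGAA, 209 bases before the start and GGGCGG, the GC box of SP and KLF factors, at 12 bases.
Trim71: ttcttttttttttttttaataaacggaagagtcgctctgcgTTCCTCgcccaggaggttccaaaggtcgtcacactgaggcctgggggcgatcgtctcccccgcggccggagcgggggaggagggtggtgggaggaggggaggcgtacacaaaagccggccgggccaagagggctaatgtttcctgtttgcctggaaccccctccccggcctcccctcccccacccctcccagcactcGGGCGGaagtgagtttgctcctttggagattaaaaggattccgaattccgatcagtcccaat
GGGCGG occurs in 35.9% of the promoters compared. The window has 59.3% G and C.

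The receptor genes *Flt1*, *Il1r1* and *Il7r* were lower with and without the set-aside cells. *Flt1*, a receptor of VEGF (chr5:147561604-147726011), had medians of 23.8 CPM (0 to 424) and 0 CPM (0 to 326), a log2 ratio of -1.70 (-2.11), and was found in 41 of 45 cells (91.1%, 78.8 to 97.5%) and 25 of 71 cells (35.2%, 24.2 to 47.5%), against 98.2% of endothelial cells. *Eng*, the endothelial TGF-beta coreceptor, had a log2 ratio of -1.30 (-1.70) with medians of 0 CPM at both stages and the E10.5 cell higher in 48.9% of pairs. *Kdr*, the other main VEGF receptor, was -1.74 with all cells and -0.08 without the set-aside cells. Of 13 tested endothelial genes 4 were lower and 3 higher, against background shares of 7.70% and 4.40%. The higher ones, *Stab2*, *Lyve1* and *Ets1*, are no longer so without the set-aside cells, where *Lyve1* stood at -0.13 and 2 of 10 were lower against 3.24% of all genes. The summed level of 7 endothelial markers, none at 0 throughout, had medians of 79.5 CPM at E9.5 (0 to 1624) and 85.7 CPM at E10.5 (0 to 2392), below the median of 4783 CPM in sorted endothelium.

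Of the cytokine receptors 2 of 19 tested were higher and 2 lower (2 and 3 of 17 without the set-aside cells), beside 4.40% and 7.70% of all tested genes (3.95% and 3.24%). *Il1r1*, the interleukin 1 receptor, had medians of 9.65 and 0 CPM and was found in 68.9% and 28.2% of cells (log2 ratio -1.26, -1.52). *Il7r*, the interleukin 7 receptor of lymphoid cells and early yolk sac macrophage precursors, was found in 15 of 45 and 10 of 71 cells, with 1 cell holding 50.7% of its E9.5 sum (log2 ratio -2.35, -1.44). *Il10ra* was on the higher side at 1.94 (1.73). *Csf3r*, the granulocyte colony stimulating factor receptor, did not pass 2-fold, with medians of 57.9 and 86.5 CPM.

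With all cells, the remaining lineage lists with tested genes held 1 to 4 calls each, to be read against background shares of 4.40% higher and 7.70% lower (3.95% and 3.24% without the set-aside cells). Of 8 tested megakaryocyte and platelet genes 1 was higher, *Gp9*, a subunit of the platelet von Willebrand factor receptor, at a log2 ratio of 1.22 (1.04), and 2 were lower. The lower ones were *Itgb3*, the partner of CD41, at -1.76 (-1.04), and *Rab27b*, of granule traffic, at -3.66 (-0.60). Of 7 tested erythroid genes 1 was higher, *Blvrb*, a biliverdin reductase, at 1.24 (1.04), and none lower. Of 6 tested genes of the stem cell list *Hlf* and *Cd48* were higher and none lower, and *Cd48* is a marker that adult stem cells lack. Of 8 tested myeloid transcription factors *Nfe2* and *Maf* were lower with all cells (-1.01 and -1.86) and on the other side without the set-aside cells (0.26 and 0.48), where none of 8 passed. Of 5 tested lymphoid genes 2 were lower, *Il7r* and *Notch1*, the latter at -2.16 (-0.94), and none higher. Of 15 tested innate receptor and signalling genes 3 were higher and 1 lower, and of 14 without the set-aside cells 3 and 0. *Clec7a* and *Tlr2*, receptors for fungal and bacterial products, were at 1.95 (1.78) and 1.91 (1.72). No mesenchymal or visceral endoderm gene was abundant enough to be tested.

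*Ccnd2* and *Ccnd3*, D cyclins that carry cells through G1, were lower. *Ccnd2* had a median of 743 CPM at E9.5 (2.75 to 4515) and 295 CPM at E10.5 (0 to 4223), a log2 ratio of -1.24 (-1.13), and was found in 100% and 97.2% of cells. *Ccnd3* had medians of 99.8 and 54.7 CPM and a log2 ratio of -1.06 (-1.15). They were the 2 lower genes among 5 tested cell cycle inhibitors and D cyclins, none of which was higher, while without the set-aside cells 6 were tested, 2 were lower and 1, the inhibitor *Cdkn1c*, was higher (log2 ratio 1.14). *Ccnd1*, the other D cyclin, was too low to be tested, with means of 2.68 and 6.07 CPM, medians of 0 and detection in 15.6% and 35.2% of cells. The background shares were 4.40% higher and 7.70% lower (3.95% and 3.24%). Of 20 tested mitosis genes none was higher and 1 lower (0 without the set-aside cells), and the median was 0.27 (0.31). Of 19 replication genes only *Cdt1*, which licenses origins, passed, with a log2 ratio of -1.35 (-1.19). *Top2a*, topoisomerase of dividing cells, was found in every thinned cell, with medians of 622 and 941 CPM.

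Respiratory chain genes as a list stood at a median of 0.09 (-0.05), with 2 of 20 lower, against 7.70% of all genes (3.24% without the set-aside cells, where 2 of 20 were lower too). The 2 were *Cox5a*, a subunit of cytochrome oxidase, at medians of 85.3 CPM (0 to 261) and 19.8 CPM (0 to 140), and *Cyc1*, cytochrome c1, at 178 CPM (6.62 to 9277) and 54.1 CPM (0 to 416). The E10.5 cell was higher in 20.3% of pairs for *Cox5a* and, without the set-aside cells, in 9.2%. *Atp5b*, of the ATP synthase, had a log2 ratio of -0.67 (-0.82) and *Atp5a1*, its partner, 0.16 (0.04). *Rps2*, a ribosomal protein gene whose reads can be split with processed copies, was higher at E10.5 in 15.3% of pairs (8.78%). Glycolysis genes had a median of 0.22 (0.08). *Hk1*, hexokinase 1, reversed from -1.06 to 1.15 without the set-aside cells because 1 E9.5 cell held 80.2% of its sum.

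With all cells, immediate early and stress genes had the lowest list median, -0.90 over 12 tested genes with 4 lower, against background shares of 7.70% and, without the set-aside cells, 3.24% (-0.49 and 2 lower without the set-aside cells, where lymphoid genes had the lowest, -0.76). *Klf6*, a zinc finger factor, had medians of 118.1 CPM (2.2 to 1253) and 51.9 CPM (0.444 to 590) and a log2 ratio of -1.50 (-1.58). *Klf2*, a related factor, had medians of 5.91 and 0 CPM, was found in 62.2% and 39.4% of cells, and had a log2 ratio of -2.13 (-1.30). *Fos* and *Dusp1* passed 2-fold only with the set-aside cells, with -1.28 and -2.04 against -0.63 and -0.60.

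The *Klf2* promoter is shown for this list, chr8:72318812-72319111 of GRCm38.p6 (RefSeq), plus strand, with GGGCGG in capitals at 214 and 195 bases before the start.
Klf2: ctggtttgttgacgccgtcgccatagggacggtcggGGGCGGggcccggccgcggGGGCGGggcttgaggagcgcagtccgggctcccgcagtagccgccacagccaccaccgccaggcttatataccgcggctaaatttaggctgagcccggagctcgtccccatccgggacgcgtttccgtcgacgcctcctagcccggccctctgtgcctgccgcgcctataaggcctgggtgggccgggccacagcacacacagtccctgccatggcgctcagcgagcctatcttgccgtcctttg
It has 69.3% G and C. Over all genes the ratio fell with the G and C content of the transcript: the median log2 ratio was 0.07 in the 1645 genes poorest in G and C and -0.20 in the 1644 richest (0.07 and -0.18 without the set-aside cells). The part of base content in the lower genes was not tested.

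**Figure D3:**
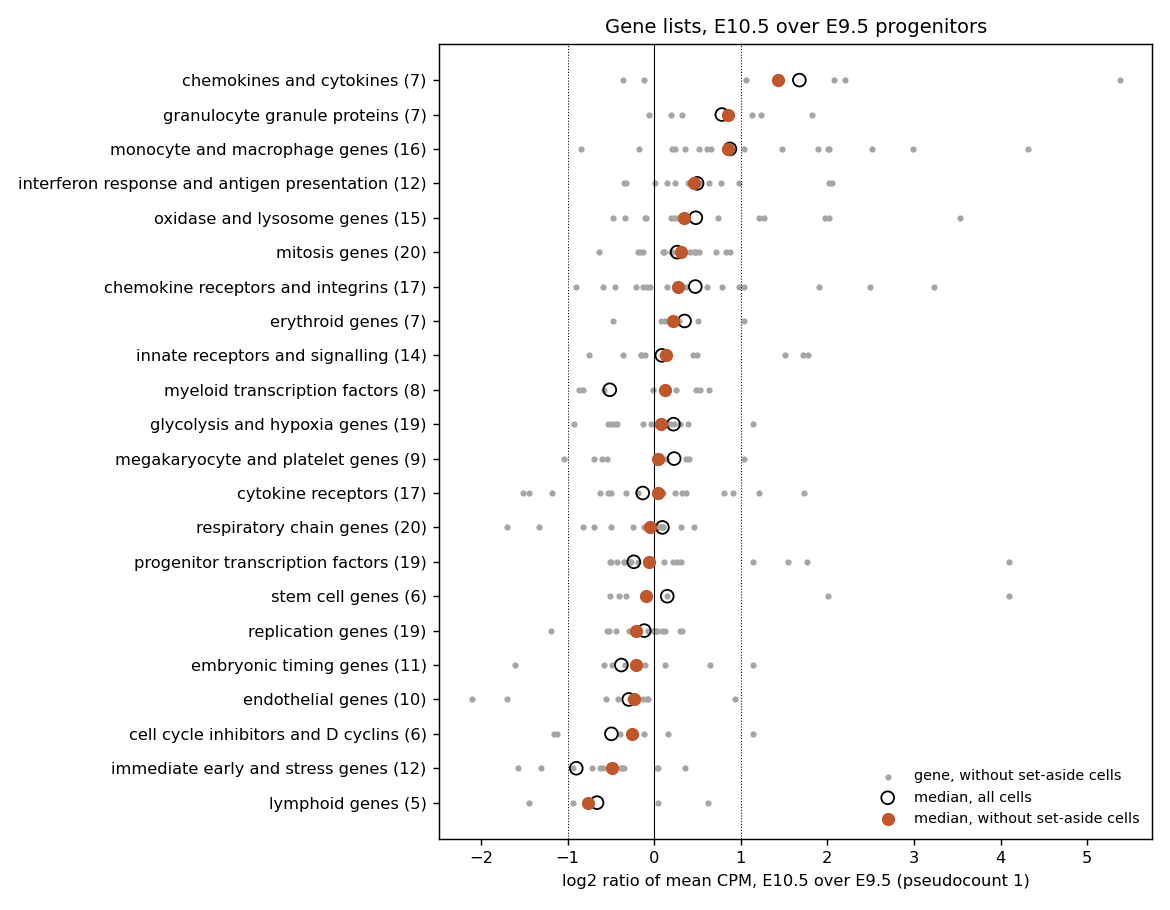
Stage ratio (x axis, log2 of mean CPM at E10.5 against E9.5) for the gene lists (y axis, tested genes in parentheses); grey dots are genes without the set-aside cells, filled and open circles the list medians without and with those cells, and dotted lines 2-fold. Among these lists, each with at least 5 genes tested at the filter of 10 CPM, chemokines, granule proteins and macrophage genes have the highest medians, lymphoid and immediate early genes the lowest.

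Lineage genes were then read cell by cell. For each of 5 lineages 8 genes were set, and a cell was counted with a programme when 4 or more of the 8 were found at equal depth. This is a range on a count of genes and not a cell type: at E10.5, 17 cells stood at exactly 3 and 17 at exactly 4 megakaryocyte genes. The megakaryocyte programme was found in 16 of 45 E9.5 cells (35.6%, 21.9 to 51.2%) and 39 of 71 E10.5 cells (54.9%, 42.7 to 66.8%), and the monocyte-macrophage programme in 8 (17.8%, 8.00 to 32.1%) and 23 (32.4%, 21.8 to 44.5%). The granulocyte programme was found in 2 (4.44%, 0.543 to 15.1%) and 14 (19.7%, 11.2 to 30.9%). The erythroid programme was found in 0 E9.5 cells, which by the limit of 3 counts allows up to 6.67% (exact upper bound 7.87%), and 7 E10.5 cells (9.86%, 4.06 to 19.3%), and the mast-basophil programme in 0 and 2.

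Every share was higher at E10.5, although the intervals of the 2 stages overlap for each programme. The E10.5 cells also held more genes in all at equal depth (median 8866 against 7907, and 8866.5 against 8209 without the set-aside cells). The part of this in the shares was not tested. Among sorted cells the macrophage programme was found in 24 of 25 macrophages, the megakaryocyte programme in 67 of 67 megakaryocytes and the erythroid programme in 66 of 66 primitive erythroid cells. Outside its own cell type, the highest share of any programme in these populations was 4%. Without the set-aside cells the megakaryocyte share at E9.5 was 43.2% and at E10.5 55.7%.

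**Figure D4:**
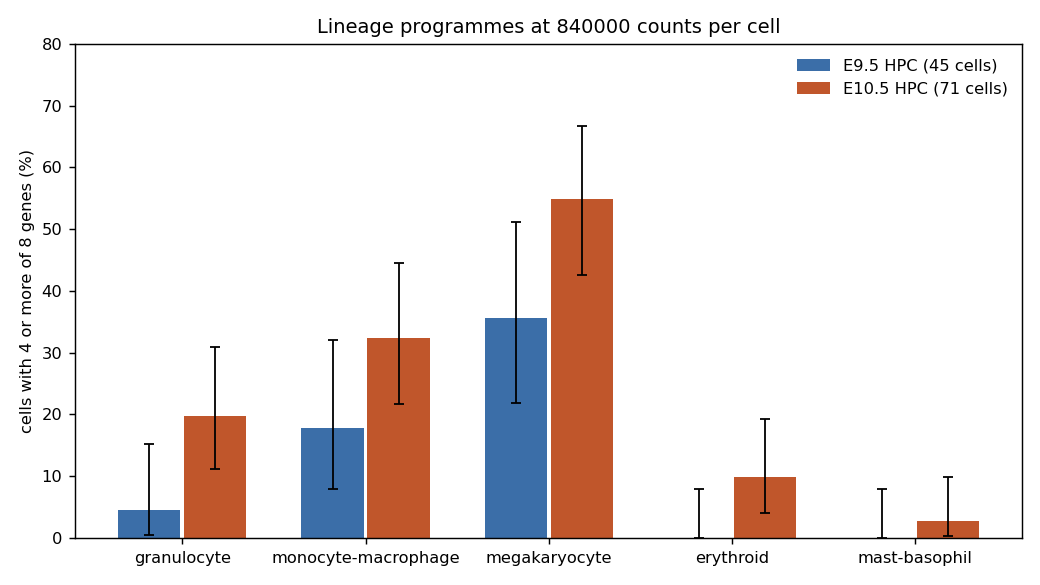
Share of cells (y axis, %) with 4 or more of 8 genes of each lineage programme (x axis) at 840000 counts per cell, in 45 E9.5 and 71 E10.5 cells; bars start at 0 and whiskers are exact binomial 95% intervals, which cover counting error only. No E9.5 cell reached the erythroid or mast-basophil programme.

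No programme was found in 23 of 45 E9.5 cells (51.1%) and 11 of 71 E10.5 cells (15.5%), exactly 1 in 18 (40%) and 41 (57.7%), and 2 or more in 4 (8.89%) and 19 (26.8%). Without the set-aside cells no programme was found in 15 of 37 E9.5 cells (40.5%) and 10 of 70 E10.5 cells (14.3%). The numbers with exactly 1 and with 2 or more stayed the same. With all cells the shares moved with the threshold: where 3 of 8 genes sufficed, exactly 1 programme was found in 44.4% and 25.4% of cells and 2 or more in 40% and 74.6%. With 5 of 8 genes exactly 1 was found in 22.2% and 52.1%, and 2 or more in 0% and 7.04%. At E9.5 the pairs were monocyte-macrophage with megakaryocyte in 3 cells and granulocyte with megakaryocyte in 1. At E10.5 monocyte-macrophage with megakaryocyte was the most frequent pair, in 6 cells, and 1 cell carried 4 programmes.

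Single genes of different lineages were found in the same cells. *Gata1* and *Csf1r* were found together in 2 E9.5 cells (4.44%) and 20 E10.5 cells (28.2%), and *Gata1* and *Mpo* in 6 and 43. Every E10.5 cell with *Gata1* thus also held *Mpo*, which all 71 cells did.

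The E9.5 cells were also described in their own right. Per kilobase of exon the highest mean levels were mitochondrial, led by *mt-Cytb* with 48898 CPM per kilobase against a median of 5170, since the cells above 10% mitochondrial counts set these means. Ranked by the median, *Actb* led with 3571 CPM per kilobase, followed by *Hsp90ab1* with 2596 and *Eef1a1* with 2589, the last read together with its processed copies. The genes that varied most among those found in 30% to 70% of E9.5 cells included the chemokine *Ccl3*, found in 30 of 46 cells with a highest level of 1182 CPM, *Hp*, haptoglobin, in 30 cells up to 683 CPM, and *Tmem176b*, in 28 cells up to 1969 CPM. These genes were present at high levels in some E9.5 cells and missing from others.

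Across the 46 E9.5 cells the mean level of monocyte-macrophage genes was inversely related to that of megakaryocyte genes, with a Spearman correlation of -0.31 (-0.46 without the set-aside cells and -0.19 without cells holding transcripts of both sexes), and -0.32 across the 87 E10.5 cells. At E9.5 the correlation of the megakaryocyte level was 0.40 with the erythroid and 0.38 with the mast-basophil level, and 0.19 and 0.33 after thinning, where no E9.5 cell reached the erythroid programme. These are descriptions over cells that share a capture and a lane. The granulocyte level was not set against the macrophage level, with 0.25 at E9.5 and 0.03 at E10.5. Outside the programmes, the genes most like the macrophage genes at E9.5 were *Marcks*, *Gas7*, *Irf8*, *Bnip2* and *Itgam*, at correlations of 0.62 to 0.67. Those most like the megakaryocyte genes were *Inpp5b* at 0.67, *Mdga1* at 0.61, *F2r*, a thrombin receptor, at 0.59, *Stard4* at 0.59 and *Nfe2*, a platelet formation factor, at 0.56. Across E10.5 cells *Marcks*, *Gas7*, *Irf8* and *Itgam* stood at 0.52 to 0.65 and *Bnip2* at 0.11. There *F2r* stood at 0.52 and *Nfe2* at 0.34, while *Inpp5b*, *Mdga1* and *Stard4* stood at 0.14, 0.26 and 0.20.

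**Figure D5:**
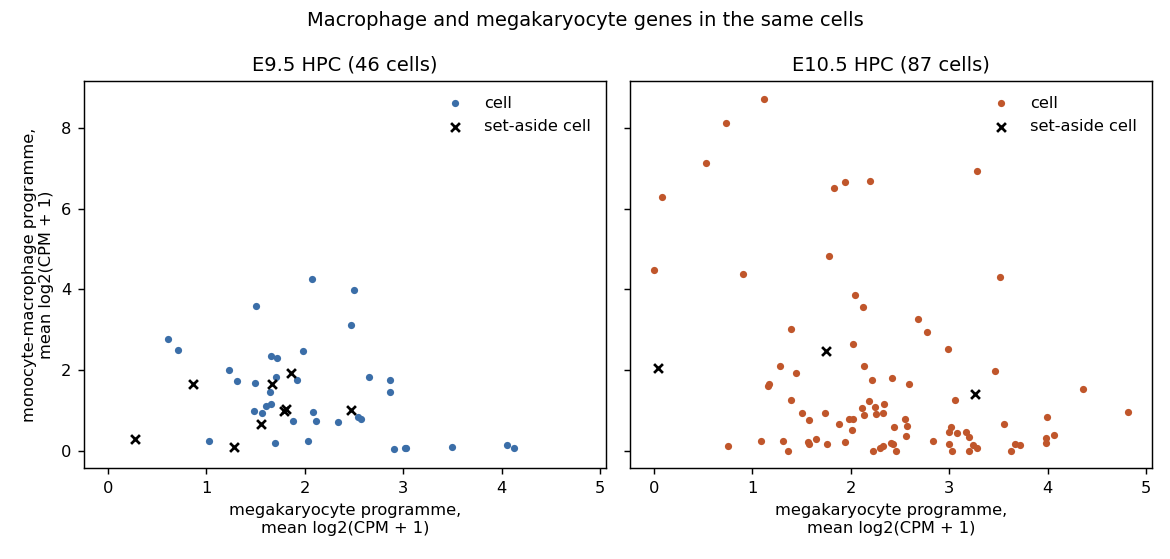
Mean log2(CPM + 1) of the 8 megakaryocyte genes (x axis) and of the 8 monocyte-macrophage genes (y axis) in each E9.5 (left) and E10.5 cell (right); crosses are set-aside cells. The Spearman correlation is -0.31 at E9.5 and -0.32 at E10.5, and the highest macrophage levels are at E10.5.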

How the data were processed

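Single-cell RNA-seq libraries of 46 E9.5 HPC and 87 E10.5 HPC were used. The authors sorted and captured the cells, aligned reads to GRCm38 (Ensembl release 84) with Subread and counted reads per gene with featureCounts; the deposited counts are raw. The deposited signal values, called CPM here, are those counts multiplied by 1 size factor per cell, computed by the authors with scran after their scater filter. No alignment, counting or cell filter was repeated. Symbols and coordinates came from GENCODE M21, also on GRCm38, and 15381 of 15967 genes matched a single Ensembl ID. A further 58 listed genes lie outside the filtered table and were read from the unfiltered counts of the same cells; in 15349 of 15356 genes matched between the tables the counts were the same.

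Levels were summarised over cells, with a pseudocount of 1 CPM in ratios and a filter of 10 CPM on the mean of the stage means. Detection (1 count or more) was read on counts thinned to 840000 per cell with a fixed seed. Shares have exact Clopper-Pearson 95% intervals. Pair shares count ties as 0.5. Cells are not replicates, so no p-value, standard error or set test was computed. A cell held transcripts of both sexes when *Xist* and the Y-linked genes each had at least 5 counts. The ratios were tested on simulated data. Python 3.11.15, numpy 2.4.6, pandas 2.3.3 and scipy 1.17.1 were used.

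Named genes are members of the lists, the 15 genes per direction with the largest ratio at 50 CPM or more and in 50% of cells or more at the higher stage, the 10 highest E9.5 genes per kilobase, the 10 most variable E9.5 genes found in 30% to 70% of cells, and the 5 genes most correlated with each programme among those found in 20% of E9.5 cells or more. Each programme has 8 genes, among them, for the granulocyte, *Mpo*, *Elane*, *Prtn3* and *Ctsg*; for the monocyte-macrophage, *Csf1r*, *Cx3cr1*, *C1qb* and *Adgre1*; for the megakaryocyte, *Pf4*, *Itga2b*, *Gp9* and *Itgb3*; for the erythroid, *Klf1*, *Epor*, *Alas2* and *Slc4a1*; and for the mast-basophil, *Cpa3*, *Hdc*, *Ms4a2* and *Il1rl1*. Some members are not reported here by name. The comparison, members, lists and tests were chosen with earlier results of these data known. Promoters were taken from RefSeq (GRCm38.p6), which held 359 of 474 listed genes; 6 motifs were searched on both strands. No doublet caller was run.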

Additional observations from a re-analysis of the deposited data

Results flagged for a closer look

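The listed genes outside the filtered table were read from the unfiltered counts of the same cells, and 12 of them were found in more cells of a stage than the 3 that a count of 0 would allow. In the 46 E9.5 cells this held for *Lyz1* alone, found in 41.3% of cells at 1.82 CPM or less. *Lyz1* was also found in 57.5% of the 87 E10.5 cells, up to 21.4 CPM. The near-identical *Lyz2* was far more abundant, and the part of its reads in the *Lyz1* counts was not tested.

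In E10.5 cells mast and eosinophil genes were found at low frequency: *Il5ra*, the interleukin 5 receptor, in 12.6% of cells, *Itgb7* in 12.6% and *Ms4a2*, a subunit of the IgE receptor, in 6.90%. Granulocyte genes were *Prss57* in 10.3%, *Cebpe* in 5.75%, *Ltf*, lactoferrin, in 4.60% and *Ifitm6* in 8.05%. Others were *Rag2*, of the lymphoid recombinase, in 8.05%, *Tlr6* in 6.90%, *Il6* in 4.60% and *Afp*, alpha-fetoprotein of visceral endoderm, in 11.5%. The highest level of *Il5ra* was 162 CPM and of *Ms4a2* 146.7 CPM in a single cell, against 21.2 CPM for *Afp*. In the sorted macrophages, megakaryocytes, endothelial and primitive erythroid cells at equal depth *Ms4a2* was found in 0% and *Afp* in 4.48% of megakaryocytes and 0% of the others. The HPC shares above were read before thinning. At equal depth *Ms4a2* was found in 4.23% and *Afp* in 9.86% of the E10.5 HPC. These cells are from 1 capture, and the difference from E9.5 was not tested.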

How the results depend on the processing

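No paired analysis was possible because the stages share only cell numbers and no result comes from a test. Of the main values, 298 recomputations stayed within tolerance (the exact interval of a share, a factor of 1.5 for ratios and counts) and 45 moved. Against 4.40% of tested genes higher and 7.70% lower, 4.71% were lower with library-size scaling, 2.05% were higher and 4.45% lower with a pseudocount of 10, 9.40% and 7.79% without a filter (1457 and 1207 of 15500 genes), 0.993% and 6.24% at 100 CPM, and 13.1% and 1.23% with the mean of log2 values. With all captured cells, which were also scaled by library size, 7.86% were higher (5.42% with that scaling alone), and without the set-aside cells (chosen after seeing the data) 3.24% were lower. The cause was not tested. The list median of cell cycle inhibitors and D cyclins, -0.49 in the main ratios, moved to 0.21 with library size, 0.28 without a filter and 0.49 with all captured cells. Without a filter medians also moved for monocyte and macrophage (0.87 to 1.68), stem cell (0.15 to 0.89), lymphoid (-0.66 to -0.016) and chemokine genes (1.68 to 0.43). At 100 CPM they moved for monocyte and macrophage (0.87 to 0.29), megakaryocyte (0.23 to -0.74) and immediate early genes (-0.90 to -0.11). Other medians that moved were chemokines with the mean of log2 values (1.68 to 0.72), stem cell genes after thinning (0.15 to 1.25) and myeloid factors without the set-aside cells (-0.51 to 0.12).

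Programme shares, where 3 of 8 genes sufficed, were 35.6% (granulocyte) and 71.1% (megakaryocyte) at E9.5, and 56.3% (granulocyte), 52.1% (monocyte-macrophage), 78.9% (megakaryocyte) and 19.7% (mast-basophil) at E10.5. With 5 of 8 they were 0% (granulocyte) and 11.1% (megakaryocyte) at E9.5, and 5.63%, 31.0% and 0% (mast-basophil) at E10.5. At 10 counts or more they were 0% (granulocyte), 6.67% (monocyte-macrophage) and 11.1% (megakaryocyte) at E9.5, and 18.3% and 29.6% for the latter pair at E10.5. At full depth the E10.5 monocyte-macrophage share was 49.4%. Without cells of both sexes the E10.5 mast-basophil share was 0%. Median genes per cell were 8948 at full depth at E9.5, and 5586 (E9.5) and 6354 (E10.5) at 10 counts or more. Some log2 ratios of single genes reversed. With the mean of log2 values *Hk1* was at 1.24, *Nfe2* at 1.02 and *Rab27b* at 0.011, and after thinning *Hk1* was at 1.20 and *Maf* at 0.85. *Nfe2* was at 0.28 without cells of both sexes and at 0.28 with all captured cells, where *Oxct1* was at -0.00393. Without the set-aside cells *Hk1* was at 1.15, *Lyve1* at -0.13, *Maf* at 0.48 and *Nfe2* at 0.26.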

Other observations

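Several genes outside the lists above had a higher median, or were found in a larger share of cells, at E10.5, although the stages overlapped. *Arhgap15*, a Rac regulator, had medians of 6.23 CPM at E9.5 and 65.8 CPM at E10.5, a log2 ratio of 2.25 (2.59 without the set-aside cells) and 29 E10.5 cells above the E9.5 range. *Glipr1* was found in 22.2% of E9.5 and 71.8% of E10.5 cells and *Emilin2*, an extracellular matrix protein, in 40% and 78.9%. *F13a1*, coagulation factor XIII of macrophages and platelets, was found in 35.6% and 70.4%, with medians of 0 and 13.8 CPM. *Muc13*, a membrane mucin, had medians of 0 and 1.84 CPM and was also the gene most correlated with the mast-basophil genes over the 46 E9.5 cells (Spearman 0.64).

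*Hmox1*, haem oxygenase 1, had means of 5.77 and 113.3 CPM and a log2 ratio of 4.08 (3.89), with 6 E10.5 cells above the E9.5 range, up to 4929 CPM, and 1 cell held 50.0% of the E10.5 sum. On the lower side *Hmgn1*, a nucleosome-binding protein, had medians of 263 and 94.4 CPM, and the E10.5 cell was higher in 14.0% of pairs (14.2% without the set-aside cells).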
